A study of Mus musculus with 2 samples.

Results

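The aminoacyl-tRNA synthetases are the enzymes that load each transfer RNA (tRNA) with its amino acid. The 36 genes described here were taken by their symbols from a table of 35529 mouse genes, and all 36 were found. They comprised 20 enzymes of the cytosol and 16 of the mitochondrion, whose symbols end in 2. RNA came from C57BL/6 wild-type mice. The adenoma pool, labelled AOM+DSS, was made from colon adenomas that arose after the carcinogen azoxymethane (AOM) was combined with DSS, dextran sodium sulfate, an agent that damages the colonic lining. The control pool was made from normal colon of mice that received neither agent. Each pool joined the RNA of 6 individuals and was sequenced as 1 library, and whether an animal's adenomas were first combined was not given in the sources used here. Age, sex and doses were not stated there either.

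A synthetase first activates its amino acid with ATP and then transfers it to the matching tRNA, which carries it to the ribosome. Cells keep separate sets for translation on cytosolic ribosomes and for translation of the few proteins encoded by mitochondrial DNA, and the mitochondrial set is made from nuclear genes and imported. Several cytosolic enzymes are held in a multisynthetase complex by scaffold proteins, and many cytosolic synthetase genes are targets of Atf4, a transcription factor that is translated more when amino acids are scarce or proteins misfold.

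Values were RPKM, which are reads scaled to the length of the gene and the depth of the library. The read totals recovered from the table were 33174626 for the adenoma pool and 29548883 for the control pool. With 1 library in each group there was no replicate check and no test of any difference, so fold changes describe these 2 libraries. The exact (Clopper-Pearson) 95% intervals given beside fold changes cover counting error only. Colon epithelial markers (Epcam, Krt8, Krt19, Krt20, Vil1 and 3 others) all had RPKM above 0, and their sum was 6288 RPKM in the adenoma pool and 9626 RPKM in the control pool. In log2 fold change 1 of the 8 was above 0, Krt18 at 483 and 327 RPKM, and 7 were below. The lowest was Cdh1, at 44.9 and 137 RPKM. Smooth muscle markers summed to 2116 and 2567 RPKM in the adenoma and control pools, with 1 of 7 above 0 in log2 fold change. Leukocyte markers summed to 666 and 384 RPKM, of which the myeloid gene Lyz2 gave 621 and 328 RPKM, while 4 of the 7 were lower in the adenoma pool. Neutrophil markers summed to 389 and 115 RPKM, with S100a8 and S100a9 higher, at 120 and 175 RPKM in the adenoma pool against 0.777 and 0.693 RPKM in the control pool, and Ly6g lower, at 83.2 and 113 RPKM in the adenoma and control pools. None of the genes of these lists was at 0. The part of these marker values in the results below was not tested, and in bulk tissue fewer cells of a type and less RNA per cell cannot be told apart.

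The synthetases differed little between adenoma and normal colon. All 36 reached 1 RPKM in 1 or both pools. On the scale used throughout, log2((adenoma RPKM + 1)/(control RPKM + 1)), called log2 fold change here, no member was 2-fold higher or 2-fold lower. Of the 16517 genes that reached 1 RPKM in 1 or both pools, 14% passed 2-fold upward in the adenoma pool and 11% passed it downward; for the 12910 genes typed as mRNA these shares were 10.4% and 13.1%. Among the members the log2 fold change ran from -0.80 for Iars2 to 0.77 for Qars, a range that held 63.8% of all genes. At 1.5-fold, Qars was the only member higher, against 25.7% of all genes and 19.5% of mRNA genes. Wars, Iars2 and Mars2 were the 3 members lower, against 24.6% of all genes and 29.2% of mRNA genes. The median log2 fold change was 0.03 for the cytosolic enzymes, -0.16 for the mitochondrial enzymes and -0.02 for all genes. For mRNA genes alone the median was -0.17.

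**Figure D1:**
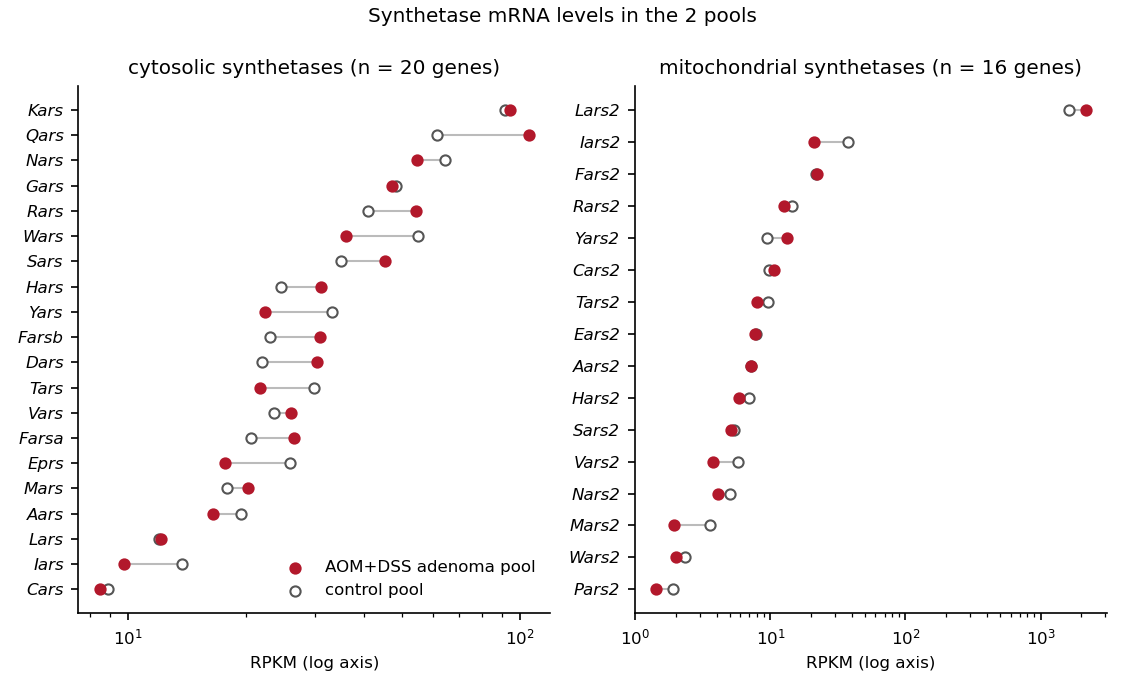
RPKM of each synthetase in the AOM+DSS adenoma pool (filled red) and the control pool (open circles) on a log axis, cytosolic enzymes on the left and mitochondrial enzymes on the right, ordered by mean level. Each point is 1 pooled library. The cytosolic enzymes lie between 8.48 and 105 RPKM, and Lars2, at 2155 and 1620 RPKM, lies far to the right of the other mitochondrial enzymes.

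The cytosolic enzymes were the more abundant set apart from Lars2. Their median level was 28.4 RPKM in the adenoma pool and 25.2 RPKM in the control pool, and that of the mitochondrial enzymes was 7.49 RPKM in both pools. The level of the cytosolic enzymes summed to 711 RPKM in the adenoma pool and 671 RPKM in the control pool. Kars, the lysyl-tRNA synthetase, which is shared between cytosol and mitochondrion, was the most abundant by mean level, at 94.5 RPKM in the adenoma pool and 91.5 RPKM in the control pool. Its ratio was 1.03 with an interval of 0.998 to 1.07, which holds 1. Cars, the cysteinyl enzyme, was the least abundant, at 8.48 and 8.90 RPKM in the adenoma and control pools, and its interval held 1 as well. Gars, the glycyl enzyme and also shared between both compartments, had 47.1 RPKM in the adenoma pool and 48.2 RPKM in the control pool. Lars, the leucyl enzyme that also reports leucine to mTORC1, had 12.1 and 12.0 RPKM in the adenoma and control pools. Kars, Cars, Gars and Lars were the 4 cytosolic enzymes whose counting interval held 1. For the others the interval lay above 1 in 9 and below 1 in 7.

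The highest cytosolic value belonged to Qars, the glutaminyl-tRNA synthetase (chromosome 9, 108507706 to 108515941, plus strand, 24 exons in its longest coding transcript in GENCODE M21 on GRCm38). It had 105 RPKM in the adenoma pool and 61.5 RPKM in the control pool, so that it was the most abundant cytosolic enzyme in the adenoma pool and the third, after Kars and Nars, in the control pool. The ratio was 1.71 (1.65 to 1.78). Dars, the aspartyl enzyme (chromosome 1, 128363707 to 128417368, minus strand), had 30.4 RPKM in the adenoma pool and 22.0 RPKM in the control pool, a ratio of 1.38 (1.29 to 1.48). Rars, the arginyl enzyme (chromosome 11, 35808381 to 35834506, minus strand), had 54.2 and 40.9 RPKM in the adenoma and control pools, a ratio of 1.33 (1.26 to 1.39). Sars, the seryl enzyme (chromosome 3, 108424865 to 108445209, minus strand), had 45.4 and 35.0 RPKM in the adenoma and control pools, a ratio of 1.30 (1.22 to 1.37).

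The phenylalanyl enzyme is built from 2 kinds of subunit, and both were higher in the adenoma pool by about the same factor. Farsb, the beta subunit (chromosome 1, 78417975 to 78488897, minus strand), had 30.9 RPKM in the adenoma pool and 23.0 RPKM in the control pool. Farsa, the catalytic alpha subunit (chromosome 8, 84856989 to 84869257, plus strand), had 26.5 and 20.6 RPKM in the adenoma and control pools. The level of Farsb relative to Farsa was therefore 1.17 in the adenoma pool and 1.11 in the control pool. In the longest coding transcript, 12.2% of Farsb overlapped Sgpp2 on the opposite strand, and whether counting used strand was not given in the sources used here. Sgpp2 stood at 13.9 RPKM in the adenoma pool and 41.9 RPKM in the control pool.

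The lowest cytosolic values belonged to Wars, Yars, Eprs, Iars and Tars, each between 1.38-fold and 1.53-fold lower in the adenoma pool. Wars, the tryptophanyl enzyme (chromosome 12, 108860030 to 108894174, minus strand), had 35.96 RPKM in the adenoma pool and 54.9 RPKM in the control pool, 1.53-fold lower (1.46 to 1.60). Yars, the tyrosyl enzyme (chromosome 4, 129189760 to 129219607, plus strand), had 22.4 and 33.1 RPKM in the adenoma and control pools, 1.47-fold lower (1.39 to 1.56). Eprs carries both the glutamyl and the prolyl enzyme in one chain (chromosome 1, 185363044 to 185428360, plus strand). It had 17.7 RPKM in the adenoma pool and 25.8 RPKM in the control pool, 1.46-fold lower (1.39 to 1.53). Iars, the isoleucyl enzyme (chromosome 13, 49682100 to 49734267, plus strand), had 9.77 and 13.7 RPKM in the adenoma and control pools, 1.41-fold lower (1.31 to 1.51). Tars, the threonyl enzyme (chromosome 15, 11382301 to 11399665, minus strand), had 21.7 and 29.9 RPKM in the adenoma and control pools, 1.38-fold lower (1.31 to 1.45). Iars is uncertain, because 2251 bases of its transcript matched the pseudogene Gm4849 at 94.7% identity. Gm4849 itself stood at 1.80 RPKM in the adenoma pool and 2.42 RPKM in the control pool.

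The other cytosolic enzymes lay between these. Hars, the histidyl enzyme, had 31.1 RPKM in the adenoma pool and 24.6 RPKM in the control pool, and the interval of its ratio was 1.18 to 1.35. Mars, the methionyl enzyme, had 20.3 and 17.9 RPKM and Vars, the valyl enzyme, 26.1 and 23.6 RPKM in the adenoma and control pools. Nars, the asparaginyl enzyme, had 54.7 RPKM in the adenoma pool and 64.4 RPKM in the control pool. Aars, the alanyl enzyme, had 16.5 and 19.4 RPKM in the adenoma and control pools. Exosc6, which lies on the same strand as Aars, took up 23.1% of its longest coding transcript and stood at 26.0 RPKM in the adenoma pool and 19.4 RPKM in the control pool, so that the Aars value is uncertain. Shorter stretches lay opposite a neighbour in Hars with Hars2 (195 bases), Cars2 with Naxd (220 bases), Nars2 with C230038L03Rik (284 bases) and Mars with Ddit3 (67 bases), and reads from these stretches cannot be assigned to a gene without strand.

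Wars is induced by interferon gamma, and 10 interferon-inducible genes were set beside it. None was 2-fold higher or lower, and their median log2 fold change was -0.26. Irf1, a transcription factor of the interferon response, had 31.2 RPKM in the adenoma pool and 58.7 RPKM in the control pool. It was lower in the adenoma pool, as Wars was. The immunoproteasome subunits Psmb8, at 101 and 75.1 RPKM, and Psmb9, at 83.7 and 58.8 RPKM in the adenoma and control pools, were higher, and so was the chemokine Cxcl9, at 3.33 and 1.86 RPKM. As deposited, 3 of the interferon-inducible genes were above 0 in log2 fold change and 7 below. After adjustment for transcript length, described below, 1 was above 0 and 9 were below. Their median was then -0.49, against -0.19 for all genes, with Psmb8 at -0.27, Psmb9 at -0.54 and Cxcl9 at 0.62.

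The cytosolic enzymes were grouped by whether they have been reported as dependent on Atf4, and the groups had different medians but overlapped. The 13 reported as dependent were Aars, Cars, Eprs, Gars, Iars, Lars, Mars, Nars, Sars, Tars, Vars, Wars and Yars, and their median log2 fold change was -0.22, with 4 above 0 and 9 below. The other 7, Dars, Farsa, Farsb, Hars, Kars, Qars and Rars, had a median of 0.40, and all 7 were above 0. Above 0 were also 8128 of the 16517 genes past 1 RPKM, and 5413 of the 12910 mRNA genes. The highest dependent members, Sars at 0.36, Mars at 0.17 and Vars at 0.14, lay above Kars, the lowest of the other 7, at 0.05. The Atf4-dependent enzymes summed to 338 RPKM in the adenoma pool and 387 RPKM in the control pool, and the others to 373 RPKM in the adenoma pool and 284 RPKM in the control pool. The medians differed by -0.62, a difference for which these libraries allow no test. The difference was -0.33 after adjustment for transcript length, described below, since the Atf4-dependent transcripts were longer, with a median of 3222 bases against 2132 bases for the others. The signs depended on the scale: with both pools rescaled to the same RPKM sum, 0 of the 13 and 4 of the 7 were above 0, with scaling by the median ratio over mRNA genes, 6 of the 13 and all 7 were, and after length adjustment, 6 of the 13 and 6 of the 7 were, with Vars at 0.44 the highest of the dependent members.

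**Figure D2:**
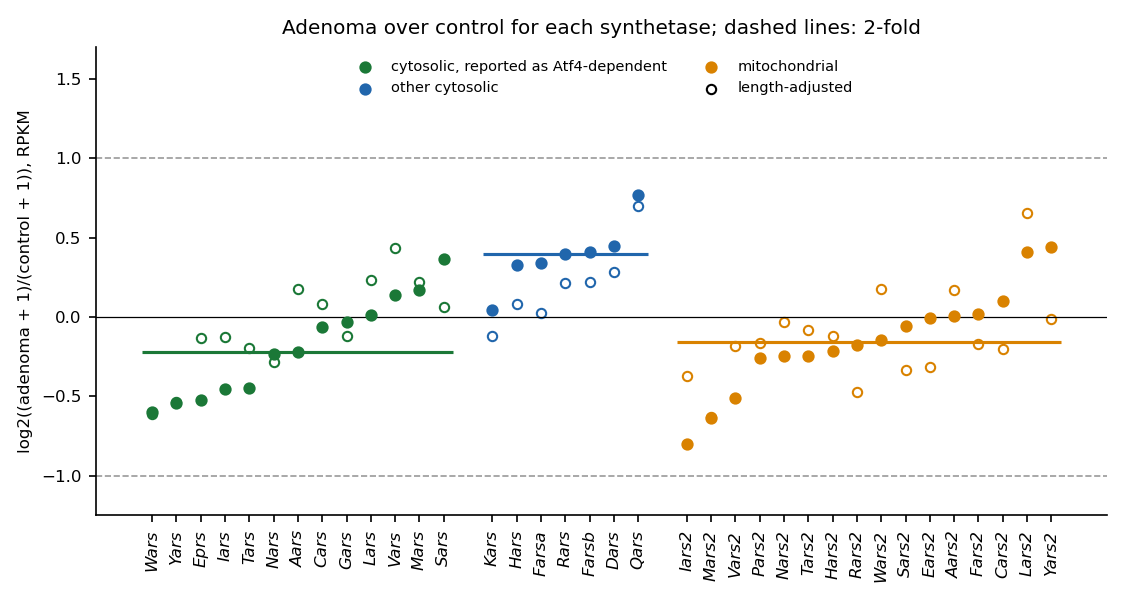
Log2 fold change of each synthetase, adenoma over control, with the value as deposited (filled) and adjusted for transcript length (open), in 3 groups sorted by value. Horizontal bars mark group medians of the filled points, -0.22, 0.40 and -0.16 from left to right, and dashed lines mark 2-fold. No point of either kind reaches a dashed line.

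Promoters were read for the members because Atf4 binds a known element, TGATGNAA, with a partner of the C/EBP family. RefSeq promoters on GRCm38.p6, from 250 bases before to 50 bases after the start, were found for 27 of the 36 members, 13 cytosolic and 14 mitochondrial. For each gene the first start listed was used. TGATGNAA, searched on both strands, was present in 5 of the 8 Atf4-dependent members with a promoter, in 0 of the 5 other cytosolic members and in 0 of the 14 mitochondrial members. Among all 27025 RefSeq promoters of the same length, 1096 (4.06%) held it. The 5 promoters are shown from 130 bases before to 25 bases after the start, in the direction of the gene, with the element in capitals, and it reads in reverse complement in all but Yars.
Aars (chr8:111033712-111033866, plus strand): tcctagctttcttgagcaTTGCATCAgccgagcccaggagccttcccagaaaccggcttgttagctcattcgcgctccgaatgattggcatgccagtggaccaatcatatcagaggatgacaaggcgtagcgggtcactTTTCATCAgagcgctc
Gars (chr6:55037871-55038025, plus strand): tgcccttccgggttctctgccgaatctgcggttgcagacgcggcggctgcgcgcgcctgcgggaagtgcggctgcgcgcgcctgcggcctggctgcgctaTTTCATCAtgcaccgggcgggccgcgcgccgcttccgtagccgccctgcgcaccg
Iars (chr13:49682000-49682154, plus strand): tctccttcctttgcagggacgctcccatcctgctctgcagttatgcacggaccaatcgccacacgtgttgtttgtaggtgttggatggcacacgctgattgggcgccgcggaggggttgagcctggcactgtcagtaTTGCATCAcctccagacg
Tars (chr15:11399634-11399788, minus strand): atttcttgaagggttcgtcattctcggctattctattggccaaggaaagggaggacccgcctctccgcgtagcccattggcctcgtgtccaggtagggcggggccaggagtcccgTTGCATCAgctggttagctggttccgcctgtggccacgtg
Yars (chr4:129189773-129189927, plus strand): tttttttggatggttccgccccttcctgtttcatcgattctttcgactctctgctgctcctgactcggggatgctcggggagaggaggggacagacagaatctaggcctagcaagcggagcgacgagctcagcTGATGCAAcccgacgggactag

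In 4 of these 5 genes (Aars, Iars, Tars and Yars) the RNA was lower in the adenoma pool as deposited, and in Gars the interval held 1. After length adjustment Aars stood at 0.17 and the other 4 stayed below 0. Aars held the element at 2 places, one 112 bases before the start and one at base 10 after it. The element began 30 bases before the start in Gars, 15 bases before it in Tars, at base 8 in Iars and at base 4 in Yars. The E-box CACGTG, also searched on both strands, was present in 5 members, Aars, Farsb, Iars, Tars and Ears2, and in 7.24% of all promoters. For comparison, the same windows of the pair of cytosolic enzymes with the highest log2 fold change, Qars and Dars, held no TGATGNAA.
Qars (chr9:108507875-108508029, plus strand): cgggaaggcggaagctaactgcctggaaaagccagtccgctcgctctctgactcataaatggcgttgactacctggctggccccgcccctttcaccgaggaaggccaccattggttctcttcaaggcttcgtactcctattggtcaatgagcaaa
Dars (chr1:128417392-128417546, minus strand): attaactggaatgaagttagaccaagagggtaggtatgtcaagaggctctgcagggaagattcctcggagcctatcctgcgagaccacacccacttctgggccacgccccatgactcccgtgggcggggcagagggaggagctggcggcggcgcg

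These matches describe letters in a window, and none of them was measured as a binding site here. The stretches searched for Aars and Qars lie wholly inside the GENCODE M21 spans of these genes, downstream of the outermost start. Matches near other starts were not searched for.

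Other genes of the amino acid response downstream of Atf4 did not move in 1 direction. Of 26 genes listed, 21 passed 1 RPKM, with 4 past 2-fold upward and 1 past it downward and a median log2 fold change of -0.02. Of all genes, 14% passed 2-fold upward and 11% downward. After length adjustment 1 of the 21 passed 2-fold upward and 3 downward, against 5.12% and 11% of all genes. Atf4 RNA itself was at 53.6 RPKM in the adenoma pool and 57.6 RPKM in the control pool. Its activity depends on translation, which RNA levels do not show. Among the higher genes were enzymes of serine synthesis, Phgdh at 15.1 RPKM in the adenoma pool and 4.58 RPKM in the control pool, 3.29-fold (2.87 to 3.80), and Psat1 at 11.0 and 4.73 RPKM. The stress protein Nupr1 had 85.1 RPKM in the adenoma pool and 28.8 RPKM in the control pool, and Eif4ebp1, an inhibitor of cap-dependent translation, had 49.3 and 23.4 RPKM. After length adjustment Phgdh, at 1.24, alone stayed past 2-fold upward, with Psat1 at 0.95, Eif4ebp1 at 0.79 and Nupr1 at 0.51. The lowest as deposited were Cth, which makes cysteine from cystathionine, at 13.7 RPKM in the adenoma pool and 33.4 RPKM in the control pool, and Sesn2, a leucine sensor upstream of mTORC1, at 1.30 and 3.49 RPKM. By the ratio of RPKM alone, without the added 1 RPKM, Sesn2 was 2.67-fold and Slc7a1 2.04-fold lower. After length adjustment Cth stood at -1.56, Ddit3 at -1.20 and Sesn2 at -1.01.

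The 8 enzymes of the multisynthetase complex (Dars, Eprs, Iars, Kars, Lars, Mars, Qars and Rars) did not share a direction. Their median log2 fold change was 0.11, with 6 above 0, and that of the 12 enzymes outside it was -0.05, with 5 above 0. For comparison, 5413 of 12910 mRNA genes were above 0. The complex includes both the highest cytosolic value, Qars, and 2 of the 5 lowest, Eprs and Iars. Of its 3 scaffold proteins, Aimp1 and Eef1e1 had higher log2 fold changes as deposited than any of its enzymes. Aimp2 had a higher one than all but Qars. Aimp1, which is also secreted as a cytokine precursor, had 107 RPKM in the adenoma pool and 46.7 RPKM in the control pool, 2.30-fold (2.17 to 2.44). Eef1e1 had 38.6 and 13.9 RPKM in the adenoma and control pools. Aimp2, on which the complex is assembled, had 29.7 RPKM in the adenoma pool and 18.7 RPKM in the control pool. As deposited, 2 of the 3 scaffolds passed 2-fold upward and no enzyme did, against 14% of all genes and 10.4% of mRNA genes. The transcript lengths used were 1126 bases for Aimp1, 1185 bases for Aimp2 and 2553 bases for Eef1e1. After length adjustment the log2 fold change was 0.41 for Aimp1, -0.09 for Aimp2 and 1.35 for Eef1e1, which alone stayed past 2-fold. On that scale 5.12% of all genes with a length passed 2-fold upward, and Qars, at 0.70, lay above Aimp1 and Aimp2. The lengths of Aimp1 and Eef1e1 are those of the longest coding GENCODE transcript and may differ from those behind the deposited values. By catalytic class, the median log2 fold change was -0.03 for the 10 class I enzymes and 0.19 for the 10 class II enzymes, and this order turned round after length adjustment, to 0.15 and 0.04.

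**Figure D3:**
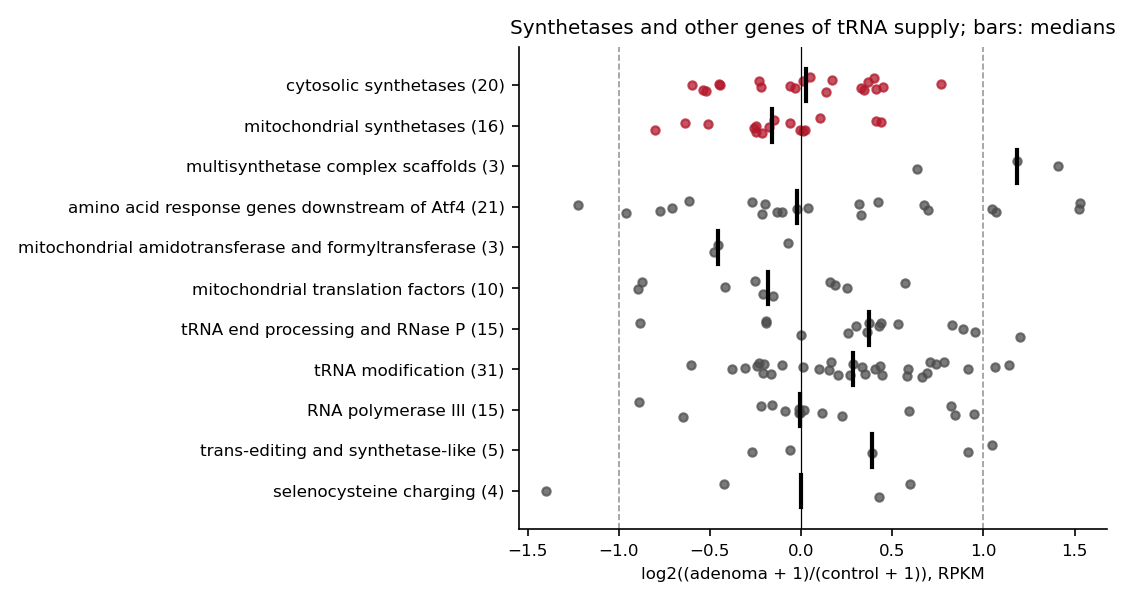
Log2 fold change, adenoma over control, of the synthetases (red) and of other genes of tRNA supply (grey), 1 row per list with the number of genes past 1 RPKM, short bars for medians and dashed lines for 2-fold. The 3 scaffold genes have a median of 1.18 (0.41 after length adjustment, not drawn), and the synthetase rows stay between the dashed lines.

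Among the mitochondrial enzymes, more values were lower than higher as deposited, with 5 of 16 above 0 and 11 below. Of mRNA genes, 5413 of 12910 were above 0 as deposited, and of all genes 8128 of 16517. The split of the mitochondrial enzymes was 2 and 14 with equal RPKM sums, and even, 8 and 8, with scaling by the median ratio. After length adjustment it was 3 and 13, where mRNA genes split into 4914 above 0 and 7806 below. On the deposited scale the counting interval lay above 1 in 2, below 1 in 8 and held 1 in 6. Iars2, the isoleucyl enzyme (chromosome 1, 185284726 to 185329396, minus strand), had 21.1 RPKM in the adenoma pool and 37.5 RPKM in the control pool, 1.78-fold lower (1.71 to 1.85), the lowest log2 fold change of all 36. Mars2, the methionyl enzyme, a gene of 1 exon (chromosome 1, 55237177 to 55248470, plus strand), had 1.93 RPKM in the adenoma pool and 3.57 RPKM in the control pool, 1.84-fold lower (1.53 to 2.23) on 185 and 304 reads. Vars2, the valyl enzyme (chromosome 17, 35655634 to 35667592, minus strand), had 3.74 and 5.76 RPKM in the adenoma and control pools, 1.54-fold lower (1.38 to 1.72). Pars2, the prolyl enzyme and the least abundant member, had 1.43 RPKM in the adenoma pool and 1.90 RPKM in the control pool, on 146 and 173 reads, 1.33-fold lower (1.06 to 1.67). Nars2, the asparaginyl enzyme, had 4.07 and 5.01 RPKM in the adenoma and control pools, 1.23-fold lower (1.09 to 1.39). The longest coding transcript of Iars2 lay opposite Rab3gap2 over 2034 bases, and Rab3gap2 stood at 3.24 RPKM in the adenoma pool and 5.70 RPKM in the control pool.

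The mitochondrial enzymes with higher values were few. Yars2, the tyrosyl enzyme (chromosome 16, 16302965 to 16309640, plus strand), had 13.2 RPKM in the adenoma pool and 9.45 RPKM in the control pool, a ratio of 1.39 (1.23 to 1.57). Cars2, the cysteinyl enzyme, which also makes persulfides, had 10.6 and 9.79 RPKM in the adenoma and control pools, and its interval of 0.964 to 1.22 held 1. Fars2, the phenylalanyl enzyme, a single chain unlike its cytosolic counterpart, had 22.0 and 21.7 RPKM, and Aars2, the alanyl enzyme, 7.23 and 7.18 RPKM in the adenoma and control pools, both with intervals that held 1. The others with intervals that held 1 were Ears2 (7.74 and 7.79 RPKM in the adenoma and control pools), Sars2 (5.13 and 5.39 RPKM) and Wars2 (2.01 and 2.33 RPKM), the enzymes for glutamate, serine and tryptophan. Rars2 for arginine had 12.7 and 14.5 RPKM, Tars2 for threonine 7.95 and 9.60 RPKM, and Hars2 for histidine 5.90 and 6.99 RPKM in the adenoma and control pools, each lower with an interval that did not hold 1.

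Lars2, the mitochondrial leucyl-tRNA synthetase (chromosome 9, 123366927 to 123462666, plus strand), stood apart in level. It had 2155 RPKM in the adenoma pool and 1620 RPKM in the control pool, 98.1 times the next mitochondrial enzyme in the adenoma pool and 43.2 times in the control pool. It made up 94.4% of the summed mitochondrial level in the adenoma pool and 91.6% in the control pool. The summed level was 2282 RPKM in the adenoma pool and 1769 RPKM in the control pool with Lars2, a ratio of 1.29, and 127 and 148 RPKM without it, a ratio of 0.85. The direction of the sum thus rested on Lars2, while the median log2 fold change was -0.16 with it and -0.17 without it. Near the end of its transcript, bases 3278 to 3349 matched the predicted gene Gm15564 at 98.6% identity over 72 bases. Ribosomal RNA rows were high in both pools, Rn45s at 9419 and 9096 RPKM and Rn18s at 31998 and 37163 RPKM in the adenoma and control pools. The Lars2 level is uncertain for this reason, and whether reads of another source were counted in it was not tested.

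The mitochondrial enzymes as a set lay slightly below the cytosolic ones in log2 fold change, by -0.19 between medians, and by -0.24 after length adjustment. Under every alternative scale, pseudocount and filter tried, the difference stayed below 0, between -0.24 and -0.09. Set against its cytosolic counterpart for the same amino acid, the picture was even. The mitochondrial to cytosolic ratio was lower in the adenoma pool for 8 of 16 amino acids and higher for 8, with a median change of 0.08 on the log2 scale. After length adjustment it was lower for 11 and higher for 5, with a median of -0.19. The greatest positive change in ratio was for tyrosine, where Yars2 to Yars stood at 0.587 in the adenoma pool and 0.286 in the control pool. The greatest negative change was for methionine, where Mars2 to Mars stood at 0.0955 in the adenoma pool and 0.199 in the control pool. Valine (0.143 and 0.244), arginine (0.234 and 0.354) and histidine (0.190 and 0.285 in the adenoma and control pools) also had lower ratios, and glutamate (0.437 and 0.301) a higher one. The cytosolic enzyme was the more abundant in 13 of the 16 pairs in the adenoma pool and in 12 in the control pool, the difference being phenylalanine, where Fars2 to Farsa was 0.830 in the adenoma pool and 1.05 in the control pool.

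**Figure D4:**
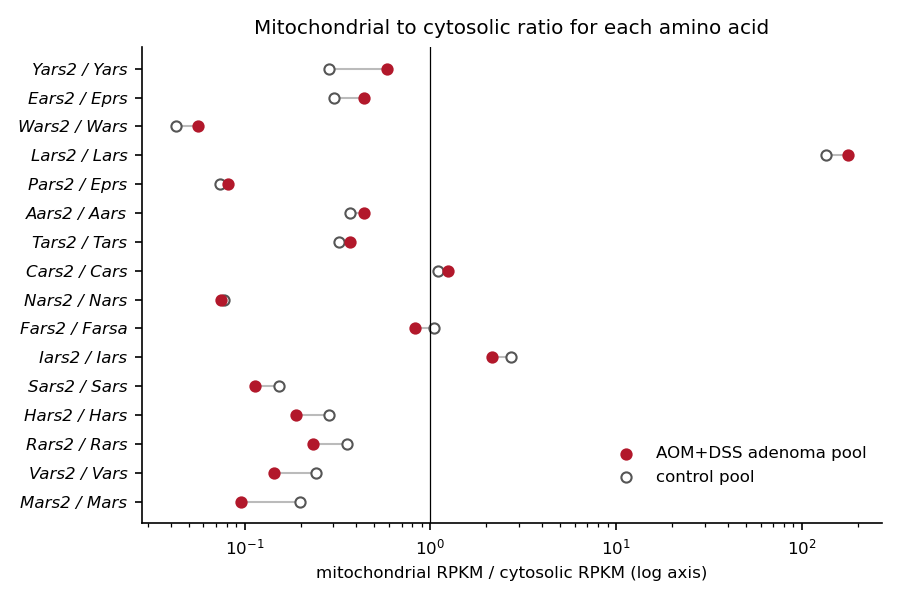
Ratio of the mitochondrial to the cytosolic synthetase for each of 16 amino acids, in RPKM on a log axis, in the adenoma pool (filled) and the control pool (open), sorted by the change. Ears2 and Pars2 are both set against Eprs. Yars2 over Yars, at the top, is 0.587 in the adenoma pool and 0.286 in the control pool, and Mars2 over Mars, at the bottom, is 0.0955 and 0.199.

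Other genes of mitochondrial translation showed no member past 2-fold either, on the scale with 1 RPKM added. The shares of all genes past 2-fold were 14% upward and 11% downward. The 10 translation factors had a median log2 fold change of -0.18, with 4 above 0. After length adjustment their median was -0.38, with 2 above 0. Tufm, the elongation factor that brings charged tRNA to the mitochondrial ribosome, was the most abundant at 26.7 RPKM in the adenoma pool and 30.9 RPKM in the control pool. The lowest were Gfm2, a ribosome recycling factor, at 5.04 and 10.2 RPKM, and Gfm1, which moves the ribosome along the message, at 12.7 and 24.1 RPKM in the adenoma and control pools. By the ratio of RPKM alone, Gfm2 was 2.03-fold lower (1.86 to 2.23). The highest as deposited were the recycling factor Mrrf, at 12.0 RPKM in the adenoma pool and 7.75 RPKM in the control pool, and Tsfm, the nucleotide exchange factor of Tufm, at 27.1 and 22.6 RPKM. After length adjustment Mrrf stood at 0.44 and Tsfm at -0.48, while Mtif3, at -0.15 as deposited, stood at 0.27. Gfm1 and Gfm2 then stood at -0.63 and -0.56, and no factor passed 2-fold. Glutaminyl-tRNA in mitochondria is made by an amidotransferase in place of a synthetase. Its subunits Qrsl1, at 5.37 RPKM in the adenoma pool and 7.87 RPKM in the control pool, and Gatc, at 5.25 and 7.57 RPKM, were both lower, while Mtfmt, which formylates the initiator methionine, was at 4.65 and 4.93 RPKM.

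The log2 fold change of all genes in this pair of libraries ran with transcript length, and the synthetases shared that relation. Across 12720 mRNA genes with a length, put into 10 bins of equal size by length, the median log2 fold change was 0.84 in the bin of the shortest, with a median length of 645 bases, and -0.78 in the bin of the longest. Length and log2 fold change had a Spearman's rho of -0.54 over those genes and -0.55 over the 36 members, as a description, since genes of 1 library pair are not independent. To adjust for this, a running median taken over 20 length bins of mRNA genes was subtracted and the mRNA median added back, after which rho over the members was 0.12. Qars kept its place as the highest member at 0.70, Lars2 followed at 0.65, and Wars, Yars and Mars2 kept low values of -0.61, -0.53 and -0.63. Eprs, Iars and Tars, with long transcripts, moved to -0.13, -0.13 and -0.19, and Iars2 to -0.37. Of the 9 cytosolic members with intervals above 1, Farsa moved to 0.03, Sars to 0.06 and Hars to 0.08. Rars moved to 0.21, Farsb to 0.22 and Dars to 0.28, while Mars and Vars moved up to 0.22 and 0.44. Yars2, the shortest member at 1587 bases, moved to -0.01. No member passed 2-fold after adjustment, where 5.12% of all genes with a length passed 2-fold upward and 11% downward. RNA integrity was not given in the sources used here, and the cause of the length relation was not tested.

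**Figure D5:**
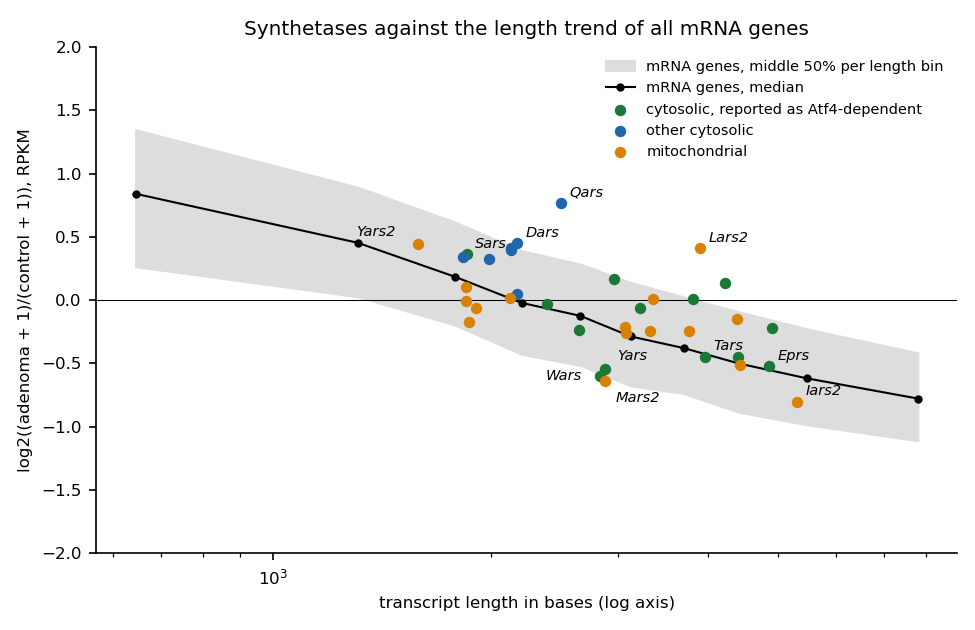
Log2 fold change, adenoma over control, of the 36 synthetases (coloured points) against transcript length on a log axis, with the median (line) and middle 50% (grey band) of mRNA genes in 10 length bins. The median falls to -0.78 in the last bin, and Qars, Lars2 and Vars lie clearly above the band.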

How the data were processed

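Per the labels, total RNA was extracted with Trizol and pooled from 6 individuals in each group, giving 1 library for the adenoma pool and 1 for the control pool. The series text names a Proton sequencer and the library protocol Illumina. The submitters' processing notes name the build GRCh37, a human assembly, although the symbols are those of mouse. No aligner, counter, strand setting or gene annotation is named in the sources used here. Values are RPKM in 1 table deposited by the authors, with a column for each pool, per the file headers.

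Read totals were recovered from short RNA genes whose RPKM and RefSeq length fix 1 read. With them, reads were whole to within 0.01 for 72% of 200 short genes in the adenoma pool and for 70.9% of 182 in the control pool. The gene length behind the RPKM was recovered for 33 of 36 members as the length that makes reads whole, or a small fraction, in both pools within 0.0003 of a read. Where several lengths did so, closeness to an annotated transcript decided between them. Of the 33, 22 came within 2% of an annotated transcript and 11 did not, which is therefore no check on the lengths. For Dars, Hars and Lars2 the longest protein-coding GENCODE M21 transcript was used, so their intervals are approximate. Reads carry no molecular identifiers and are not independent molecules. Coordinates were taken from GENCODE M21 (GRCm38).

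The log2 fold change used a pseudocount of 1 RPKM, so that the change of low genes is understated, and genes that reached 1 RPKM in 1 or both pools. No p-value was computed, because each group holds 1 library. Recovered reads ranged from 146 to 278425 per member in the adenoma pool and from 173 to 186423 in the control pool. The steps were tested on simulated data. Transcripts of members were compared with all GENCODE transcripts by blastn 2.17.0. Other steps used Python 3.11.15 with numpy 2.4.6, pandas 2.3.3 and scipy 1.17.1, and matplotlib 3.10.9 for figures.

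The members and lists were chosen with earlier results of these data known. Full values were given for members past 2-fold, the most and least abundant and the 5 highest and 5 lowest log2 fold changes of each compartment, and for each other list its most abundant gene and its 2 highest and 2 lowest, of which some are not reported here. Psat1, Eif4ebp1, Atf4, Aimp2 and the genes that overlap or resemble members were named in addition, after their values were seen. Alternatives were pseudocounts of 0.1 and 5, other filters, 3 rescalings, length adjustment and a 1.5-fold threshold. The comparison of Atf4-dependent with other members under each of these, the removal of Lars2, mRNA genes as background and the recovered lengths were added after seeing the data.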

Additional observations from a re-analysis of the deposited data

How the results depend on the processing

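No paired analysis was possible because each group holds 1 pooled library. Under pseudocounts of 0.1 and 5, other filters, 3 rescalings and length adjustment, no cytosolic member passed 2-fold in either direction and no mitochondrial member was 2-fold higher. Rescaling to equal RPKM sums put 1 mitochondrial member past 2-fold lower. A 1.5-fold threshold gave 1 cytosolic member higher, 1 cytosolic member lower and 2 mitochondrial members lower. Scale moved the medians of log2 fold change. Equal sums gave -0.35 for cytosolic and -0.44 for mitochondrial members, the median ratio 0.23 and 0.0094, and a trimmed mean of log ratios 0.23 and 0.010. These scalings moved the median of all genes by -0.32, 0.18 and 0.18, and length adjustment moved it by -0.17. Of all genes past 2-fold, 56.1% were higher as deposited, 27.7% with equal sums, 70.0% with either other scaling, 31.8% after length adjustment and 66.7% with a pseudocount of 5. Signs of single members changed for 10 with equal sums, 5 with the median ratio and 7 after length adjustment. The difference between Atf4-dependent and other cytosolic members was -0.33 after length adjustment and -0.30 with GENCODE lengths throughout, and otherwise between -0.64 and -0.54. The median change of the mitochondrial to cytosolic ratio was -0.19 after length adjustment, against 0.08. The smallest counts, 146 and 173 reads for Pars2 in the adenoma and control pools, limit its ratio most. Differences between animals or preparations could not be measured.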

Other observations

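Genes that trim or modify tRNA were set beside the shares at least 2-fold higher in the adenoma pool, 14% of all genes and 10.4% of mRNA genes. The shares at least 2-fold lower were 11% and 13.1%. The counts in these lists are too small to be read as differing from those shares. Of 31 tRNA modification genes past 1 RPKM, 2 passed 2-fold upward and 0 downward, with a median log2 fold change of 0.28 (0.03 after length adjustment). They were Qtrt1, the catalytic subunit that inserts queuine, at 23.0 RPKM in the adenoma pool and 9.86 RPKM in the control pool, and Trdmt1, a cytosine methyltransferase of tRNA, at 3.13 and 0.975 RPKM. After length adjustment Qtrt1 stood at 0.52 and Trdmt1 at 1.29. The most abundant by mean level was the cytosine methyltransferase Nsun2, at 25.8 and 22.3 RPKM in the adenoma and control pools. The lowest log2 fold changes were those of Mto1, which modifies mitochondrial tRNA, at 5.03 and 8.16 RPKM, and the pseudouridine synthase Pus7, at 6.14 and 8.28 RPKM in the adenoma and control pools. Of 15 genes of tRNA end processing, 1 was at least 2-fold higher, the RNase P subunit Rpp30 at 12.4 RPKM in the adenoma pool and 4.82 RPKM in the control pool. The median was 0.37 (-0.11 after length adjustment). After length adjustment Rpp30 stood at 0.45, and the RNase P subunit Rpp40, at 0.83 as deposited, stood at 1.18. The RNase P subunits Rpp21, the most abundant of the list, and Pop4 had 56.7 and 31.7 RPKM in the adenoma pool, against 30.1 and 15.9 RPKM in the control pool. The tRNA exporter Xpot had 4.83 and 5.66 RPKM and the 3′ nuclease Elac1 0.982 and 2.66 RPKM in the adenoma and control pools. By the ratio of RPKM alone, without the added 1 RPKM, Elac1 was 2.70-fold lower, and Rpp40 was 2.33-fold and Trmt11 2.01-fold higher.

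RNA polymerase III, which transcribes tRNA genes, had 0 of 15 genes past 2-fold in either direction on the scale with 1 RPKM added. Its median log2 fold change was 0.00, and -0.06 after length adjustment. The shares of all genes past 2-fold were 14% upward and 11% downward. Maf1, the repressor of RNA polymerase III, was the most abundant at 53.1 RPKM in the adenoma pool and 29.6 RPKM in the control pool. The subunits Crcp and Polr3k had 18.2 and 18.6 RPKM in the adenoma pool, against 8.95 and 9.93 RPKM in the control pool. The largest subunit, Polr3a, had 2.61 and 4.65 RPKM, and the initiation factor subunit Bdp1 1.08 and 2.85 RPKM in the adenoma and control pools. By the ratio of RPKM alone, Bdp1 was 2.65-fold lower (2.34 to 3.01) and Crcp 2.04-fold higher (1.80 to 2.30). After length adjustment Bdp1 stood at -0.27, Polr3a at -0.28, Crcp at 0.43 and Polr3k at 0.89. On that scale 0 of the 15 passed 2-fold upward and 1 downward, Brf2 at -1.02, against 5.12% and 11% of all genes. The length used for Brf2 was 461 bases, where its longest coding GENCODE transcript has 1899 bases. Among 4 genes of selenocysteine charging, Sepsecs, the enzyme of the last step, was at 2.96 RPKM in the adenoma pool and 9.44 RPKM in the control pool, the only one at least 2-fold lower. After length adjustment none of the 4 passed 2-fold, with Sepsecs at -0.97. Pstk, which acts before it, had 14.7 and 9.34 RPKM, Eefsec 7.44 and 5.27 RPKM and Secisbp2 5.41 and 7.60 RPKM in the adenoma and control pools. Among 5 editing and synthetase-like genes, Prorsd1 was at least 2-fold higher, at 7.78 RPKM in the adenoma pool and 3.24 RPKM in the control pool. With length adjustment Prorsd1 stood at 0.86, and none of the 5 passed 2-fold. Aarsd1, an alanyl-tRNA editing enzyme and the most abundant of them, had 27.3 and 14.0 RPKM, and Tarsl2, a threonyl-tRNA synthetase paralog, 1.71 and 2.27 RPKM in the adenoma and control pools.

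Markers of proliferation summed to 172 RPKM in the adenoma pool and 123 RPKM in the control pool, with 1 of 7 (Cdk1, at 28.1 and 11.7 RPKM) at least 2-fold higher. Of these sums Pcna gave 84.8 and 51.3 RPKM. In log2 fold change 5 of the 7 were above 0 and 2 below, Mki67 at 7.73 and 13.2 RPKM and Mcm2 at 21.1 and 23.4 RPKM. After length adjustment 6 were above 0 and 1 below, with Mki67 at -0.08, Mcm2 at 0.02 and Cdk1 at 1.51. The length used for Mki67 was 10061 bases. Markers of plasma cells, which secrete large amounts of protein, summed to 1225 RPKM in the adenoma pool and 659 RPKM in the control pool, with Igj, the antibody joining chain, at 991 and 437 RPKM, Xbp1 at 133 and 140 RPKM and Derl3 at 4.29 and 4.23 RPKM. Fibroblast markers summed to 434 and 359 RPKM in the adenoma and control pools, of which Dcn gave 249.99 and 145 RPKM, while 4 of the 6 were lower in the adenoma pool. Their part in the synthetase values was not tested.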
